A study of Mus musculus with 44 samples.

Results

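The nuclear-encoded subunits of the respiratory chain and of ATP synthase were followed across RNA-seq libraries of mouse macrophages. Members were genes whose symbol begins with Nduf followed by a, b, c, s or v and a digit, with Uqcr, with Cox4 to Cox8 followed by a, b or c, or with Atp5, together with Sdha, Sdhb, Sdhc, Sdhd, Cyc1 and Cycs. A count sum of at least 20 over a table was also required. This rule gave 80 genes in the table of the NCoR experiment, 77 in that of RGFP966, 78 in that of Pgc1b and 76 in that of the TBK1 inhibitor, of 83 symbols that fit the pattern and of 24940 genes listed, and 76 genes were members in all 4 tables. Of the 80, 37 belong to complex I, 4 to complex II, 9 to complex III, 1 is cytochrome c, 13 belong to complex IV and 16 to ATP synthase (complex V). A few further subunits fall outside the pattern (Cox4i1, Cox4i2, Ndufab1, Usmg5 and Atpif1), and genes of the mitochondrial genome were not listed in the tables used here.

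Complexes I and II feed electrons from NADH and succinate into the chain, complex III passes them to cytochrome c, and complex IV hands them to oxygen. Complexes I, III and IV pump protons, and ATP synthase uses the gradient to make ATP. Most subunits are encoded in the nucleus, whereas the mitochondrial genome supplies a small catalytic core, and macrophages given bacterial lipids are known to shift their energy supply from the chain towards glycolysis.

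The libraries came from bone marrow-derived macrophages (BMDMs), which are grown from marrow precursors in culture, of C57BL/6 mice per the study's methods (the library names of WT_RANKL, NKO_RANKL and NKO_KLA give no strain). The study asked how the nuclear corepressor NCoR acts in signal-induced gene activation. There were 44 libraries in 22 groups of 2 replicates, deposited as 4 tables. The first table (24 libraries) held NCoR flox/flox cells without Cre (WT) and NCoR flox/flox, LysMCre cells (NKO), each given vehicle, KLA, PolyIC, IFNb or IL4 for 6 h, or RANKL for 12 h. The second (6 libraries) held Wild type cells with vehicle (Veh), KLA, or KLA with RGFP966, the third (8 libraries) Pgc1b flox/flox cells without (Pgc1b_flox) and with LysMCre (Pgc1b_flox_Cre), each with vehicle or KLA, and the fourth (6 libraries) Wild type cells with DMSO (DMSO_Veh), DMSO and KLA (DMSO_KLA), or KLA and a TBK1 inhibitor (TBK1i_KLA). KLA (Kdo2 lipid A) is the ligand of TLR4, PolyIC stands in for double-stranded RNA at TLR3, RANKL drives osteoclast formation, RGFP966 inhibits the NCoR partner HDAC3, and Ppargc1b encodes the coactivator PGC1β. LysMCre is active in myeloid cells and every flox group without Cre still carries the floxed allele. Whether replicates were separate mice was not stated in the labels, so the p-values measure the spread between these libraries, which may be technical.

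Between 8.32 and 16.8 M reads per library were counted in genes (M, 1e6, median 12.2 M), so that 3 counts stood for 0.179 to 0.360 counts per 1e6 (CPM). Replicates correlated at 0.990 to 0.996 on the log2 CPM scale. Ncor1 was lower in NKO than in WT cells under all 6 treatments, by a log2 fold change between -1.78 and -1.41. Ppargc1b was not lower in the Cre libraries (log2 fold change of -0.00 with vehicle and 0.38 with KLA, adjusted p of 1 and 0.27), and since all exons are summed, these counts do not check the deletion. Macrophage markers were abundant in every library (9167 CPM or more in sum over 7 genes). Libraries of the RANKL groups stood apart with neutrophil markers at 628 to 862 CPM against 0 to 7.22 CPM elsewhere and fibroblast markers at 171 to 278 CPM against 0 to 110 CPM. Fibroblast markers also differed among the other groups. They were at 0.655 and 1.33 CPM in WT_KLA against 80.1 and 72.5 CPM in WT_Veh. NKO_KLA had 8.42 and 5.91 CPM against 55.1 and 53.4 CPM in NKO_Veh. DMSO_KLA (38.7 and 35.9 CPM) lay near DMSO_Veh (40.4 and 42.0 CPM). The part of other cell types was not tested. Y-linked transcripts were counted 578 to 3050 times in 10 libraries, which were the 8 of the Pgc1b table and the 2 of NKO_KLA, and at most 5 times in the other 34. Dates in the library names differed between WT_KLA and WT_Veh, between NKO_KLA and WT_KLA, between NKO_KLA and NKO_Veh, and between RANKL and vehicle. In these comparisons the date and the treatment or genotype cannot be told apart.

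Of the members, 76, 74, 75 and 74 passed the filter on low counts in the 4 tables. Those that did not were Atp5g2, Atp5l, Cox6b2 and Ndufa4l2 in the NCoR table, Cox6b2, Cox7a1 and Cox7c in the RGFP966 table, Atp5g2, Cox6b2 and Cox7c in the Pgc1b table, and Cox6a2 and Cox7a1 in the TBK1 inhibitor table. Below, a gene is called when edgeR's quasi-likelihood test gave an adjusted p below 0.05 and the fold change exceeded 1.5, and levels of a gene are TMM-scaled CPM given for replicates 1 and 2.

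The promoters of 5 members are shown because the results turn on these genes. Cycs, Cox5a, Atp5b and Uqcrfs1 were called higher with KLA in all 4 tables with TMM scaling, and Atp5g3 is the gene that held a match to the estrogen-related receptor (ERR) motif. Each line gives the 250 bases before the RefSeq start of the gene on its own strand in GRCm38.p6, 5′ to 3′, and capitals mark matches to the motifs named after them. The windows are chr6:50566570-50566819 on the minus strand for Cycs, chr9:57520982-57521231 on the plus strand for Cox5a, chr10:128083057-128083306 on the plus strand for Atp5b, chr13:30545317-30545566 on the minus strand for Uqcrfs1 and chr2:73911327-73911576 on the minus strand for Atp5g3.
Cycs: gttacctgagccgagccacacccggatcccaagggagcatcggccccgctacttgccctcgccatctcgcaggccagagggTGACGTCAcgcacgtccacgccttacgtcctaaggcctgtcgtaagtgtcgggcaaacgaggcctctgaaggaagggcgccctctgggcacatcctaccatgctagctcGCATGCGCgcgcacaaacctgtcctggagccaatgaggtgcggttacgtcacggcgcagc
Uqcrfs1: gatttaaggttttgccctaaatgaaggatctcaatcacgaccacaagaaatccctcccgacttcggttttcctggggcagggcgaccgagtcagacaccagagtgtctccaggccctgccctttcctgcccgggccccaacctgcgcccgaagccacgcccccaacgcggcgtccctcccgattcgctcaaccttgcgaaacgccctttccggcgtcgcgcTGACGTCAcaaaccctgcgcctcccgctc
Cox5a: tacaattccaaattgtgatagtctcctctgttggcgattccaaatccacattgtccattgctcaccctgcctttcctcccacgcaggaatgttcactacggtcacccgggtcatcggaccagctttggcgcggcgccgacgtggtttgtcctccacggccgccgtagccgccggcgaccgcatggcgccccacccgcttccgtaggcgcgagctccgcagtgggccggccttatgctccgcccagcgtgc
Atp5b: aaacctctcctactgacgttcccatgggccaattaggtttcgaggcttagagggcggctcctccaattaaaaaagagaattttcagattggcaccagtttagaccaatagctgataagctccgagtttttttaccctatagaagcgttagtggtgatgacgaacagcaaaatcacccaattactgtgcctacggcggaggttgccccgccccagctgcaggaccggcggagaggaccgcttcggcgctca
Atp5g3: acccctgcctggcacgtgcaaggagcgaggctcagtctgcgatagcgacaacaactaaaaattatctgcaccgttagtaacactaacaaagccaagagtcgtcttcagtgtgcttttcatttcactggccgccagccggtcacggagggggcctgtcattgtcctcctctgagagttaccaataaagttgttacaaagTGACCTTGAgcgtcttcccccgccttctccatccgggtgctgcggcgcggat
In the Cycs window the first capitals are a cAMP response element (CRE, TGACGTCA) 169 bases before the start and the second an NRF1 site (GCATGCGC) 60 bases before it. These distances are from the RefSeq start at the end of the window. The Cycs transcript used for counting starts further downstream, at chr6:50566474. A CRE also lies 29 bases before the start of Uqcrfs1, and the ERR motif (TCAAGGTCA) was found on the opposite strand 52 bases before that of Atp5g3. Windows of Cox5a and Atp5b held none of the 5 motifs searched on both strands, and no matches overlapped in the windows shown. A window was available for 65 of the 80 members and for 27025 genes in all. NRF1 letters were in 9 members (13.8%, against 2.56% of all genes): Atp5g2, Atp5k, Atp5l, Cox6a1, Cycs, Ndufa11, Ndufa6, Ndufa8 and Sdhb. CRE letters, which were searched after the Cycs sequence had been seen, were in 5 members (7.69% against 1.77%): Cycs, Ndufa10, Ndufa11, Ndufb2 and Uqcrfs1. The GABP motif (CCGGAAGT) was in 3 members (4.62% against 3.23%), the ERR motif in 1 (1.54% against 0.422%) and the YY1 motif (AAGATGGC) in 1 (1.54% against 1.83%).

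Per unit of transcript length, the subunits covered a wide range in resting WT cells. Levels in this paragraph are transcripts per 1e6 (TPM) in the WT_Veh libraries, computed from the counts and the listed lengths. Cox8a, a small subunit of complex IV, was highest at 596 and 587 TPM. Atp5b, the catalytic beta subunit of ATP synthase, followed at 558 and 548 TPM, which did not overlap with Cox8a. Ndufa4, long assigned to complex I and known to associate with complex IV, had 355 and 313 TPM, the highest level among genes with complex I names. Sdhc, a membrane anchor of complex II, had 284 and 289 TPM, and Sdhb, its iron-sulfur subunit, overlapped it at 293 and 272 TPM. In complex III, Uqcrh, the hinge protein, was highest with 273 and 243 TPM.

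At the other end, Cycs, which encodes somatic cytochrome c, was listed at only 1.30 and 0.581 TPM, from 20 and 9 counts. Its partner Cyc1, the heme subunit of complex III, had 121 and 119 TPM. Cycs shared 28.5% of its 50-base stretches with 79 other genes, the median for members being 1.66%, and the 7 members that shared over 50% included Atp5g2 (87.4%, 0.5 TPM) and Atp5l (84.8%, 0.6 TPM). How the authors' alignment treated reads that fit several places was not tested, so levels of these genes in relation to others are uncertain, and comparisons of 1 gene between groups are the firmer ones.

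Tissue-linked isoforms were near the limit of detection beside their general counterparts. In WT_Veh the heart and muscle isoform Cox6a2 had a mean of 5.44 TPM against 529 TPM for Cox6a1, and Cox7a1 had 7.96 TPM against 136 TPM for Cox7a2 and 190 TPM for Cox7a2l. The testis isoform Cox6b2 stood at 1.76 TPM beside 498 TPM for Cox6b1. Hypoxia-linked Ndufa4l2 (0.413 TPM) and Cox4i2 (0.413 TPM) compared with 334 TPM for Ndufa4 and 641 TPM for Cox4i1. Over all libraries the counts were 2 to 44 for Cox6a2, 2 to 25 for Cox7a1, 0 to 11 for Cox6b2, 0 to 7 for Ndufa4l2 and 0 to 3 for Cox4i2. Cox8b reached at most 1 count in a library and Cox8c none, which allows up to 0.360 CPM in the shallowest library by counting error alone.

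Subunit transcripts together took between 0.289% and 0.690% of all gene counts in a library. The highest group means were those of WT_RANKL (0.687%), NKO_RANKL (0.617%), Pgc1b_flox_Veh (0.574%), Pgc1b_flox_Cre_Veh (0.563%) and NKO_KLA (0.519%), and the lowest were those of NKO_PolyIC (0.324%) and RGFP966_KLA (0.295%). KLA groups held a smaller share than their vehicle groups in each table: 0.352% against 0.453% in WT, 0.335% against 0.441% in Wild type cells of the RGFP966 table, 0.453% against 0.574% in Pgc1b_flox and 0.356% against 0.419% with DMSO. NKO cells differed from this order, with 0.519% under KLA and 0.423% under vehicle. NKO_KLA and NKO_Veh also differ in date and in Y-linked counts (578 and 1057 against 0). Treatment, date and sex of the mice cannot be told apart there.

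**Figure D1:**
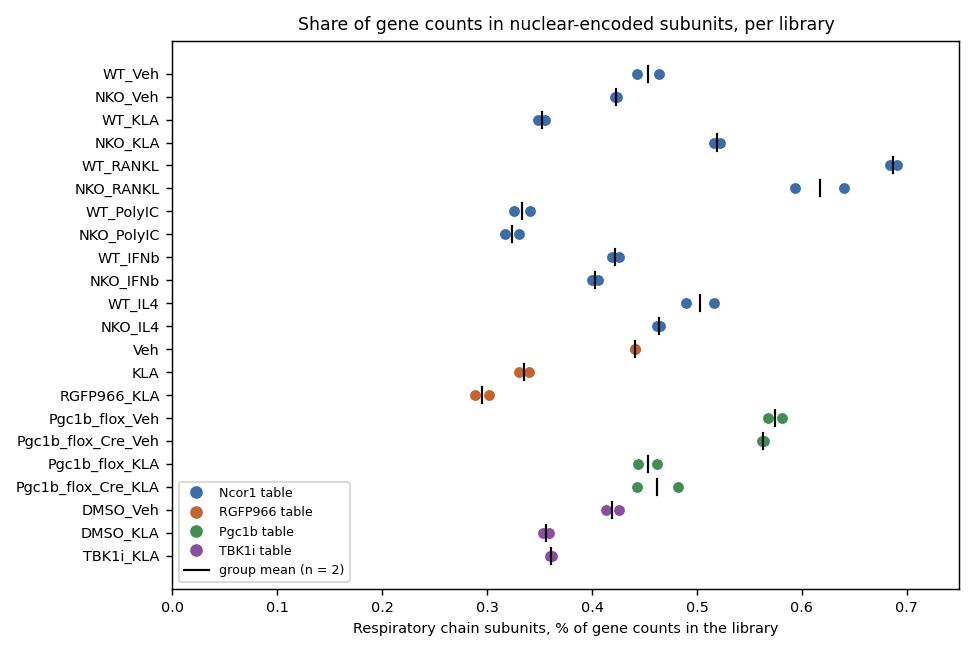
Percent of gene counts in the subunits for each library (points) with the mean of each group (bars), by group and coloured by table. RANKL groups lie highest, and WT or flox KLA groups lie below the vehicle groups of their table while NKO_KLA lies above NKO_Veh. The NKO_KLA libraries also differ from NKO_Veh in date and in Y-linked counts.

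This share and the TMM-scaled levels do not point the same way for KLA, and the scale has to be named with each direction. With TMM, the median log2 fold change of the members was above 0 in all 4 KLA comparisons (0.15 in WT, 0.17 in Wild type, 0.33 in Pgc1b_flox and 0.42 with DMSO), whereas with scaling to library totals, an alternative chosen after seeing the data, it was -0.57, -0.60, -0.37 and -0.36. Library totals moved the median of all genes tested as well, from -0.14, -0.07, -0.05 and 0.02 to -0.87, -0.83, -0.74 and -0.76. The distance between members and all genes was nearly the same on both scales, at 0.30, 0.24, 0.37 and 0.40 with TMM. Subunits therefore lay above the typical gene on either scale, by less than 1.5-fold. Fold changes below are TMM-scaled where no other scale is named.

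**Figure D2:**
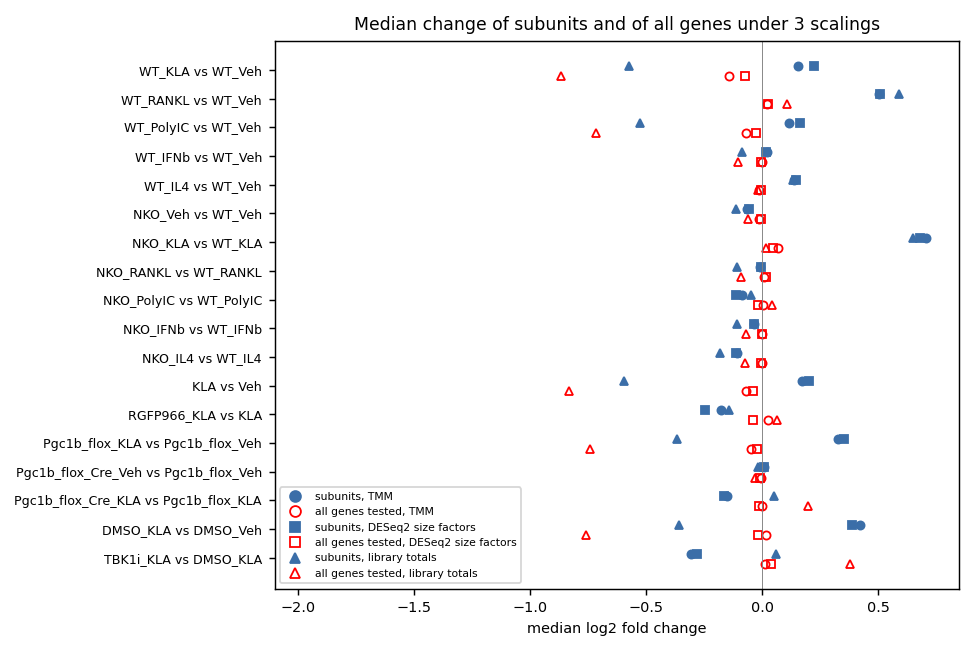
Median log2 fold change of the subunits and of all genes tested in 18 comparisons under TMM, DESeq2 size factors and library totals. In the 4 KLA comparisons and with PolyIC both medians move below 0 under library totals, by about the same distance, while with the TBK1 inhibitor both move upward.

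The response to KLA was uneven within the chain. In WT cells 16 of 76 members were called higher (25.4% of all genes tested were) and 5 lower (32.3%). In Wild type cells of the RGFP966 table the counts were 12 higher and 6 lower of 74 (27.9% and 32.2% of all genes), in Pgc1b_flox cells 7 and 1 of 75 (22.8% and 25.7%), and with DMSO 23 and 3 of 74 (29.6% and 29.3%). The share of members called higher was 21.1%, 16.2%, 9.33% and 31.1%, below that of all genes except with DMSO, and the share called lower (6.58%, 8.11%, 1.33% and 4.05%) was below it in every table. Without the fold threshold, 35 members were higher and 15 lower in WT (34.8% and 39.5% of all genes), 31 and 13 in Wild type (38.2% and 40.7%), 39 and 3 in Pgc1b_flox (32.8% and 32.9%) and 50 and 6 with DMSO (41.1% and 37.7%). Many subunits hence changed by small amounts, mostly upward with TMM. With library totals, in contrast, 1 member was called higher and 37 lower in WT (13.8% and 54.8% of all genes). The counts were 2 and 38 in Wild type (14.7% and 57.5%), 0 and 20 in Pgc1b_flox (12.2% and 53.7%) and 2 and 21 with DMSO (14.5% and 55.1%). Of the 16, 12, 7 and 23 members called higher with TMM, 1, 2, 0 and 2 kept the call with library totals and 5, 6, 3 and 11 had values below 0, while each member called lower kept its call.

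Among the complexes, complex IV had the highest median in every table. In WT, Wild type, Pgc1b_flox and DMSO cells the median log2 fold change of complex IV was 0.47, 0.43, 0.44 and 0.59, and that of complex III was 0.24, 0.41, 0.42 and 0.54. ATP synthase had medians of 0.33, 0.20, 0.32 and 0.46. Complex I lay lower with -0.01, 0.04, 0.21 and 0.27, and complex II had 0.17, 0.04, 0.07 and 0.26. In WT cells, 6 of 12 tested members of complex IV and 6 of 14 of ATP synthase were called higher, compared with 1 of 36 of complex I, whereas 4 of the 5 members called lower belonged to complex I. WT_KLA and WT_Veh also differ in date and in the fibroblast markers given above. In the other tables complex I had 1 called higher and 4 lower in Wild type, 1 and 0 in Pgc1b_flox, and 8 and 1 with DMSO. Spearman's rho between log2 fold changes of members and GC content of the transcript was -0.44, -0.27 and -0.27 in WT, Wild type and DMSO cells. It was near 0 in Pgc1b_flox cells (-0.03), and the part of GC content was not tested. The medians of the complexes are on the TMM scale, and the median over all members lies below 0 under library totals, as given above.

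**Figure D3:**
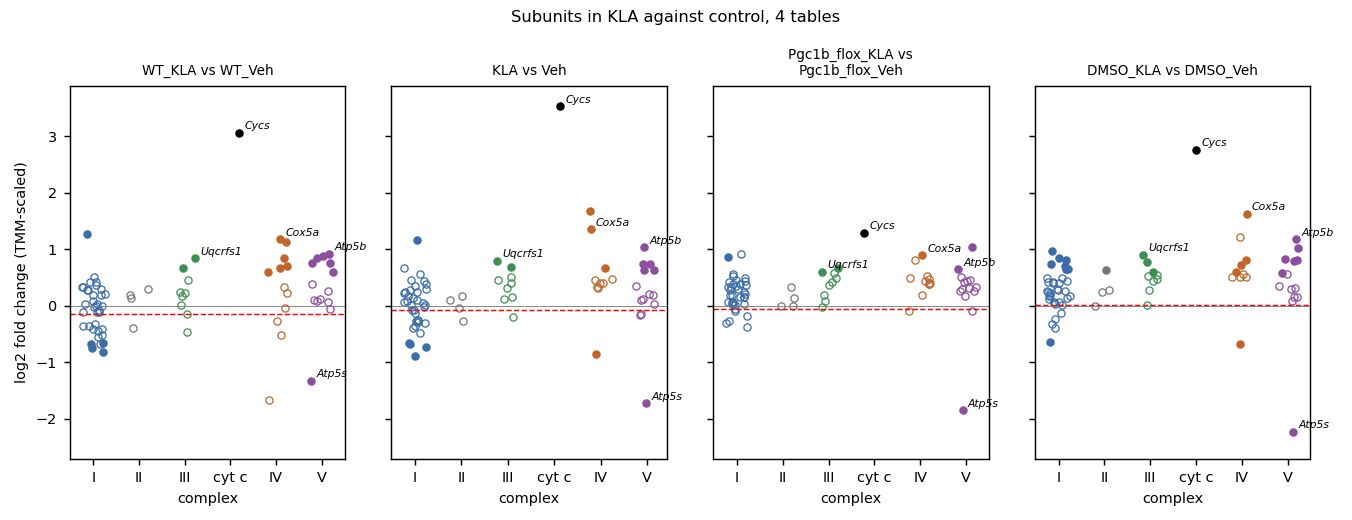
Log2 fold change of each tested subunit by complex in the 4 comparisons of KLA with vehicle, with called genes filled and the median of all genes tested as a red dashed line. Cycs stands highest in each panel and Atp5s lowest among the genes called. Complex I spreads around 0 in WT and Wild type cells and has medians of 0.21 and 0.27 in Pgc1b_flox and DMSO cells. Most points of complexes III and IV lie above 0.

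Over 73 members tested in all 4 tables, 4 were called higher with KLA in each (18.9% of the 11757 genes tested in all 4 were) and 1 lower (19.1%). With library totals these counts were 0 higher and 13 lower. On that scale 53.7% to 57.5% of all genes were called lower within a table, and 12.2% to 14.7% higher. By adjusted p alone with TMM, 22 were higher in each (28.1% of all genes) and 3 lower (25.6%). The 22 included Atp5a1, Atp5b and Atp5o of ATP synthase, Cox5a, Cox5b and Cox6c of complex IV, Cyc1, Uqcrc1 and Uqcrfs1 of complex III, Sdhd of complex II and Cycs. The 3 lower were Atp5s, Ndufb10 and Ndufv3. Log2 fold changes of the 73 members correlated across genes between the 4 comparisons with Spearman's rho of 0.58 to 0.86, as a description, since genes are not independent and share library properties.

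Cycs, the electron carrier between complexes III and IV, gave the highest value in each table. Its level was 1.38 and 0.616 CPM in WT_Veh and 8.35 and 8.50 CPM in WT_KLA. In Wild type cells it was 0.656 and 0.771 CPM with vehicle and 6.79 and 9.72 CPM with KLA, and with DMSO 0.724 and 1.13 CPM against 6.19 and 6.48 CPM. Pgc1b_flox cells had 2.19 and 2.01 CPM with vehicle and 5.72 and 4.52 CPM with KLA. In every table both KLA libraries lay above both vehicle libraries, while the vehicle level in Pgc1b_flox was above that in the other 3 tables. The log2 fold changes were 3.07 ± 0.32 (SE, adjusted p = 3.23e-13) in WT, 3.53 ± 0.29 (2.98e-19) in Wild type, 2.77 ± 0.33 (5.66e-17) with DMSO and 1.29 ± 0.42 (7.43e-03) in Pgc1b_flox cells. The last was lost without Pgc1b_flox_Veh replicate 2 (1.23, adjusted p = 0.059), without Pgc1b_flox_KLA replicate 1 (1.10, adjusted p = 0.071) or with library totals (0.60, adjusted p = 0.19). With library totals Cycs rose by 2.34 in WT, 2.77 in Wild type and 1.99 with DMSO.

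**Figure D4:**
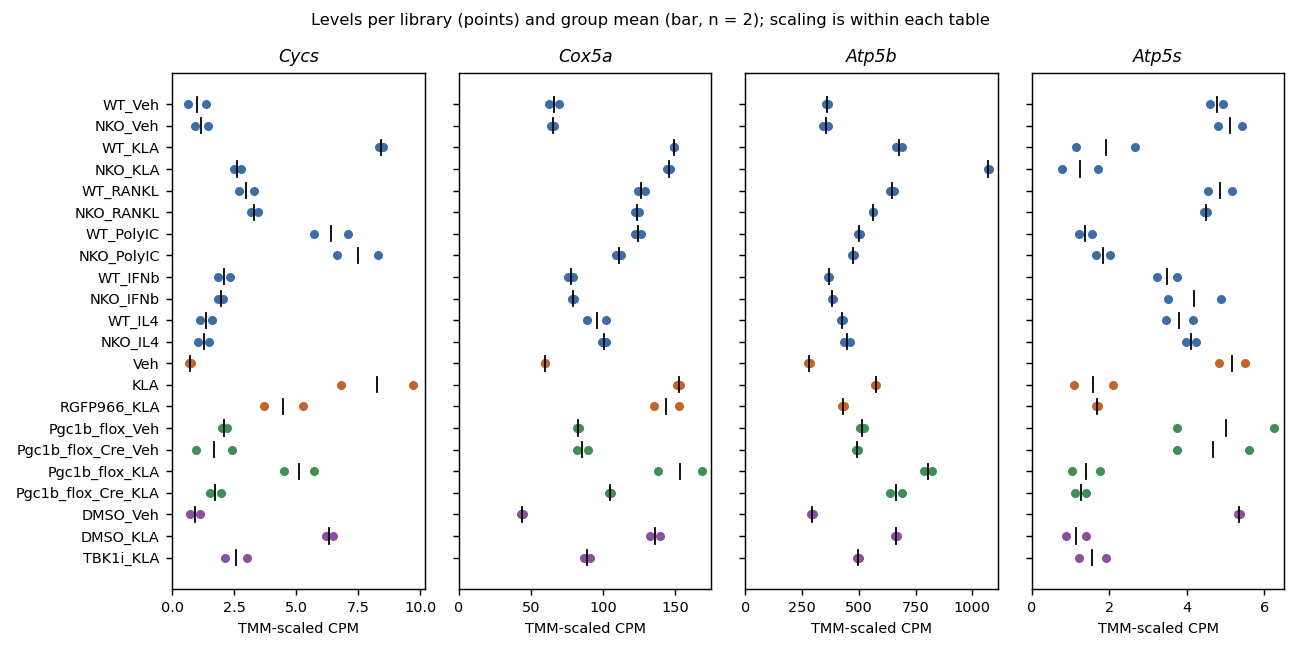
TMM-scaled CPM of Cycs, Cox5a, Atp5b and Atp5s in each of the 44 libraries, by group and coloured by table. Cycs is high in WT_KLA, KLA and the PolyIC groups but low in NKO_KLA and Pgc1b_flox_Cre_KLA, Atp5s is low in the KLA and PolyIC groups, and Atp5b is highest in NKO_KLA.

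Cox5a encodes a nuclear subunit of complex IV close to its catalytic core. It stood at 62.3 and 69.3 CPM in WT_Veh and 149 and 149 CPM in WT_KLA, at 59.8 and 59.5 against 154 and 152 CPM in Wild type cells, at 81.8 and 83.1 against 169 and 138 CPM in Pgc1b_flox cells and at 44.4 and 43.2 against 140 and 132 CPM with DMSO. No KLA library overlapped with a vehicle library. Cox5a rose by 1.18 ± 0.07 (SE, log2, adjusted p = 1.94e-24), 1.35 ± 0.07 (1.04e-31), 0.90 ± 0.09 (2.88e-11) and 1.63 ± 0.06 (5.82e-141). With library totals the calls remained in Wild type (0.59) and DMSO cells (0.85) and were lost in WT (0.45) and Pgc1b_flox cells (0.20).

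Atp5b was among the most abundant members. Its level went from 362 and 355 to 692 and 665 CPM in WT, from 275 and 284 to 577 and 572 CPM in Wild type, from 504 and 521 to 822 and 788 CPM in Pgc1b_flox and from 290 and 296 to 660 and 666 CPM with DMSO. Atp5b rose in each table by 0.92 ± 0.05 (adjusted p = 1.68e-24), 1.04 ± 0.06 (1.27e-29), 0.65 ± 0.06 (7.94e-12) and 1.18 ± 0.04 (1.23e-189). Its companion in the catalytic head, Atp5a1, passed from 327 and 319 to 552 and 546 CPM in WT and was called higher there, in Wild type and with DMSO. With library totals none of these calls on Atp5b and Atp5a1 remained, and the change of Atp5b was 0.19 in WT, 0.27 in Wild type, -0.04 in Pgc1b_flox and 0.40 with DMSO.

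Uqcrfs1 is the Rieske iron-sulfur protein of complex III. WT cells had 66.7 and 67.6 CPM with vehicle and 116 and 125 CPM with KLA, and Wild type cells 48.9 and 49.4 CPM against 86.0 and 84.4 CPM. In Pgc1b_flox cells 73.9 and 80.1 CPM compared with 116 and 118 CPM, and with DMSO 52.5 and 55.2 CPM compared with 99.6 and 103 CPM. On the TMM scale Uqcrfs1 was higher in both KLA libraries of each table, with log2 fold changes of 0.84 ± 0.07 (adjusted p = 5.44e-17), 0.79 ± 0.07 (8.85e-17), 0.60 ± 0.08 (1.02e-07) and 0.91 ± 0.07 (3.08e-42). With library totals no table kept the call, at 0.11, 0.03, -0.09 and 0.13 (adjusted p of 0.12, 0.73, 0.30 and 0.055).

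In complex I, Ndufs4, an accessory subunit needed for assembly of its NADH-oxidising module, behaved unlike most neighbours. It rose from 19.9 and 16.6 to 45.4 and 42.5 CPM in WT (1.27 ± 0.11, adjusted p = 1.28e-15), from 17.1 and 15.8 to 37.8 and 36.2 CPM in Wild type (1.17 ± 0.10, 3.51e-18) and from 15.3 and 15.3 to 28.1 and 31.7 CPM with DMSO (0.96 ± 0.12, 4.71e-16). In Pgc1b_flox cells the levels were 26.4 and 26 against 37.2 and 40.3 CPM, a change of 0.56 ± 0.13 (adjusted p = 2.98e-04) that stayed under the fold threshold. With library totals the 3 calls on Ndufs4 were lost (0.54, 0.40 and 0.19). Ndufa6, another accessory subunit, went the other way, from 35.8 and 32.4 to 21 and 17.7 CPM in WT (-0.82 ± 0.12, adjusted p = 5.57e-09) and from 42.1 and 35.3 to 23 and 19 CPM in Wild type (-0.89 ± 0.11, 1.70e-10). Libraries of the vehicle and KLA groups did not overlap for either gene. The remaining members called lower were Ndufb10, Ndufs7 and Ndufv3 in WT (-0.66, -0.67 and -0.74), Ndufv3, Ndufb3 and Ndufb11 in Wild type (-0.66, -0.68 and -0.73) and Ndufb11 with DMSO (-0.63). Ndufb11 with DMSO was lost without DMSO_Veh replicate 2 (-0.54).

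Atp5s was the gene called lower in all 4 tables. It encodes coupling factor B, a protein linked to ATP synthase that is not part of its core. Counts were low, at 67 and 72 in WT_Veh and 7 and 16 in WT_KLA, which gave 4.61 and 4.93 CPM against 1.15 and 2.67 CPM. The CPM fell from 4.83 and 5.50 to 2.10 and 1.07 in Wild type, from 6.25 and 3.76 to 1.04 and 1.76 in Pgc1b_flox and from 5.37 and 5.32 to 0.884 and 1.39 with DMSO. All 8 vehicle libraries were above all 8 KLA libraries. Log2 fold changes were -1.32 ± 0.34 (adjusted p = 3.86e-04), -1.72 ± 0.29 (2.19e-07), -1.84 ± 0.43 (2.93e-04) and -2.23 ± 0.34 (2.21e-10), and the first was not called without WT_KLA replicate 1 (-0.84, adjusted p = 0.056).

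Cox7a2l, which is known to help complexes III and IV join into supercomplexes, was lower with KLA in Wild type cells (67.5 and 75.4 against 37.5 and 41.4 CPM, log2 fold change -0.85 ± 0.08, adjusted p = 5.14e-16) and with DMSO (76.7 and 79.5 against 47.8 and 50.7 CPM, -0.66 ± 0.07, 2.08e-19). In WT cells 78.8 and 72.3 CPM compared with 51.9 and 53.3 CPM, and in Pgc1b_flox cells 62.0 and 63.5 CPM with 59.5 and 58.8 CPM. Its paralog Cox7a2 was called higher in WT, Wild type and DMSO cells with TMM (0.84, 0.66 and 0.73) and in none of them with library totals (0.11, -0.10 and -0.05). Cox6a2 was called higher in WT (1.17 and 1.30 against 2.29 and 3.17 CPM, 1.14 ± 0.40, adjusted p = 0.0101) and in Wild type cells (0.516 and 0.514 against 0.669 and 2.55 CPM, 1.68 ± 0.52, 2.71e-03). The second call rests on KLA replicate 2, which had 31 counts where replicate 1 had 7, and without it the value was 0.38 (adjusted p = 0.67). With library totals both calls were lost (0.41 and 0.92).

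Complex II also belongs to the citric acid cycle. Of its 4 genes, Sdhd, a membrane anchor, was the 1 called, and only with DMSO, where it rose from 64.9 and 68.6 to 99.6 and 107 CPM (0.63 ± 0.06, adjusted p = 9.50e-23, but -0.15 and not called with library totals). In WT cells Sdhd went from 87.8 and 87.7 to 104 and 112 CPM, Sdha, the flavoprotein, from 167 and 163 to 170 and 193 CPM, and Sdhc from 115 and 117 to 134 and 132 CPM. Sdhb had 109 and 101 CPM in WT_Veh and 81.6 and 79.2 CPM in WT_KLA. These 4 changes (0.30, 0.14, 0.19 and -0.38 on the log2 scale) passed the adjusted p of 0.05 and stayed under the fold threshold. For Sdhb the change was -0.26 in Wild type cells, which also passed, and -0.00 with DMSO (adjusted p = 0.99).

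Cyc1 was called higher in Wild type (29.7 and 28.7 against 51.2 and 43.7 CPM, 0.70 ± 0.09, adjusted p = 4.34e-11), Pgc1b_flox (46.6 and 56.9 against 81.2 and 84.7 CPM, 0.68 ± 0.11, 8.66e-07) and DMSO cells (35 and 38.1 against 65.4 and 59.5 CPM, 0.77 ± 0.08, 1.05e-21). In WT cells 49.7 and 48.9 CPM compared with 60.4 and 56.7 CPM, and the change stayed under the fold threshold. Atp5g3, a gene for the membrane ring of ATP synthase, went from 64.7 and 64.0 to 123 and 115 CPM in WT (0.89 ± 0.07, adjusted p = 7.09e-19) and from 41.9 and 52.0 to 97.7 and 93.0 CPM with DMSO (1.02 ± 0.07, 2.10e-49). With library totals no call on Cyc1 (-0.07, -0.02 and -0.01) or Atp5g3 (0.16 and 0.25) was kept. In Pgc1b_flox cells Atp5g1, of the same ring, rose from 4.30 and 4.36 to 10.3 and 7.41 CPM (1.04 ± 0.28, adjusted p = 1.42e-03), and without Pgc1b_flox_KLA replicate 1 it did not (0.77, adjusted p = 0.051). Ndufs5 of complex I rose there from 5.92 and 6.57 to 11.4 and 11.4 CPM (0.87 ± 0.23, adjusted p = 1.36e-03). The last 2 were not called with library totals either (0.35 and 0.17).

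Genes around the chain were read beside the 25.4% and 32.3% of all genes called higher and lower with KLA in WT cells. With library totals these shares were 13.8% and 54.8%. WT_KLA and WT_Veh differ in date and in fibroblast markers, so KLA, date and any part of other cell types cannot be told apart in the WT values of these lists. Of 48 assembly factors tested there, 10 were called higher and 13 lower (median 0.02), or 4 and 26 with library totals (-0.71). The highest were Sco1 (2.94), which delivers copper to complex IV, Coa5 (2.67), a complex IV assembly factor, and Cox18 (2.15), which helps insert the COX2 subunit, and the lowest were Sdhaf3 (-3.15) and Sdhaf1 (-1.68) for complex II and Ndufaf7 (-2.53) for complex I. Of 12 regulators of mitochondrial biogenesis tested, 5 were higher and 1 lower (median 0.45), or 3 and 2 with library totals (-0.28). Ppargc1b was higher with KLA by 1.69 in WT, 2.52 in Wild type, 1.02 in Pgc1b_flox and 1.90 with DMSO, and Esrra, which encodes the receptor ERRα that PGC1β coactivates, by 1.48, 1.41, 1.10 and 1.68. In Pgc1b_flox cells neither was called with library totals (0.33 and 0.41). Tfam, the packaging factor of mitochondrial DNA, was called in 1 of the 4 (0.63 in Wild type cells, -0.13 and not called with library totals). Polrmt, the mitochondrial RNA polymerase, was lower in WT (-1.15). Nrf1 and Gabpa differed by 0.49 and 0.40 there, which passed the adjusted p and not the fold threshold. Of the 4 targeted genes, Ppargc1b and Tbk1 (1.61) were called higher in WT and Ncor1 (0.37) and Hdac3 (-0.24) were not called.

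Among 18 genes of the citric acid cycle and pyruvate dehydrogenase, 3 were called higher with KLA in WT cells (Dld 1.31, Cs 1.10 and Dlst 0.84) and 3 lower (Idh2 -1.30, Suclg2 -1.17 and Idh3g -0.83), with a median of 0.26, and with library totals 1 was higher and 6 lower (-0.47). Glycolysis genes counted 7 higher and 2 lower of 16 (median 0.23), mitochondrial ribosomal proteins 13 and 12 of 77 (0.06) and cytosolic ribosomal proteins 9 and 5 of 68 (0.25). With library totals these 3 lists counted 5 and 7, 1 and 40, and 0 and 21, with medians of -0.50, -0.67 and -0.48. None of the 4 tested subunits outside the symbol pattern was called (median 0.31 with TMM and -0.41 with library totals), and 1 of these passed the adjusted p. All values in this paragraph are from WT cells, where KLA, date and any part of other cell types cannot be told apart.

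With PolyIC, 2 of 76 members were called higher (22.2% of all genes) and 2 lower (25% of all genes), while 31 were higher (31.8%) and 11 lower (34.7%) by adjusted p alone. With library totals 1 was called higher (13.1% of all genes) and 27 lower (51.7%). The median was 0.12 with TMM and -0.53 with library totals, beside -0.07 and -0.71 for all genes. Cycs rose from 1.38 and 0.616 to 5.71 and 7.09 CPM (2.67 ± 0.31, adjusted p = 3.52e-11) and Cox5a from 62.3 and 69.3 to 126 and 122 CPM (0.91 ± 0.06, 1.22e-19), the latter not being called with library totals (0.27). Atp5s fell from 4.61 and 4.93 to 1.55 and 1.2 CPM (-1.79 ± 0.33, adjusted p = 2.73e-06) and Ndufa6 from 35.8 and 32.4 to 20.5 and 19.6 CPM (-0.77 ± 0.11, 3.71e-09). These 4 genes did not overlap between PolyIC and vehicle, and each was also called with KLA in WT cells, a comparison that uses the same vehicle libraries. Without WT_Veh replicate 2, 7 members were called in place of 4. Ppargc1b was higher with PolyIC by 2.91 and Esrra by 1.03 (0.39 and not called with library totals).

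With IFNb, a type I interferon, 1 member was called in either direction (6.47% of all genes were), and 4 were higher (14.8%) and 2 lower (10.6%) by adjusted p. Cycs went from 1.38 and 0.616 to 2.33 and 1.84 CPM (1.07 ± 0.36, adjusted p = 0.0196), and the call was lost without WT_Veh replicate 2 (0.60, adjusted p = 0.32), without WT_IFNb replicate 1 (0.88, adjusted p = 0.19) and in a fit of these 2 groups alone. Ppargc1b differed by 0.36 (adjusted p = 0.20).

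IL4, which drives alternative activation, raised Ppargc1b by 2.74 and Esrra by 0.62. Among the members 1 was called higher (6.63% of all genes) and 1 lower (6.46%), and 22 were higher by adjusted p alone (15.4% of all genes), with 1 lower (16.3%) and a median of 0.14 beside -0.01 for all genes. The 2 called genes were rare muscle isoforms. Cox6a2 rose from 17 and 19 counts to 44 and 41 counts (1.41 ± 0.33, adjusted p = 5.04e-04) and Cox7a1 fell from 14 and 15 to 4 and 2 counts (-2.04 ± 0.66, adjusted p = 0.0128), the latter being lost without WT_IL4 replicate 2 (-1.63, adjusted p = 0.13). Cox5a, at 102 and 89.1 CPM, lay above both vehicle libraries (0.54 ± 0.06, adjusted p = 1.49e-10) and under the fold threshold.

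RANKL libraries held the largest share of subunit counts among the 22 groups. Of 76 members, 34 were called higher than in WT_Veh (24.1% of all genes) and 2 lower (19.8%), and 60 were higher by adjusted p alone (35.9%). Medians were 0.55 in complex I with 17 called higher, 0.49 in complex III with 4, 0.45 in complex IV with 5, 0.63 in ATP synthase with 7, and 0.21 in complex II with 0. The median over all members was 0.50 with TMM and 0.59 with library totals, beside 0.02 and 0.11 for all genes. The 599 genes no longer than the members' median length of 746.5 bases had a median of 0.29 with TMM. With a trend on transcript length removed, the median of the members was 0.35. Cycs (1.57 ± 0.33, adjusted p = 3.44e-05), Atp5g3 (64.7 and 64.0 against 149 and 149 CPM, 1.21 ± 0.06, 7.04e-27) and Cox7b (31.9 and 30.7 against 70.4 and 72.5 CPM, 1.19 ± 0.08, 1.18e-19) were highest, and Cox7a2l (-0.76 ± 0.07, adjusted p = 7.71e-14) and Cox6a2 (-1.09 ± 0.46, adjusted p = 0.0308) were lower. The call on Cox6a2 was lost without WT_Veh replicate 1 or 2 or WT_RANKL replicate 1.

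Other lists were read in the RANKL libraries beside the 24.1% and 19.8% of all genes called higher and lower. Mitochondrial ribosomal proteins were called higher in 45 of 77 genes and lower in 0 (median 0.65), assembly factors in 16 and 1 of 48 (0.42), the citric acid cycle in 6 and 0 of 18 (0.48) and glycolysis in 10 and 0 of 16 (1.03), with 20 and 3 of 68 cytosolic ribosomal proteins (0.42). These libraries also carried the neutrophil and fibroblast markers given above. Their names carry the word Osteoclast where the others have BMDM, and they were treated for 12 h and not 6 h. Treatment, any difference in culture, time and date therefore cannot be told apart, and the part of the other cell types was not tested. Osteoclast markers, summed over 4 genes, lay within the range of the other libraries. They were at 74.5 and 73.6 CPM in WT_RANKL against 54.1 and 45.3 CPM in WT_Veh. NKO_RANKL had 96.9 and 104 CPM against 125 and 130 CPM in NKO_Veh. In these bulk samples, fewer cells of a type and less RNA per cell cannot be told apart.

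TBK1 is a kinase downstream of TLR4 and TLR3. With the TBK1 inhibitor, 0 of 74 members were called higher than in DMSO_KLA (15% of all genes were) and 9 lower (18.3%), while 46 were lower by adjusted p alone, which is 62.2% of the members tested against 29.4% of all genes. DESeq2 called 6. The median was -0.31 with TMM, beside 0.01 for all genes, and turned to 0.06 with library totals, beside 0.38 for all genes. With library totals 1 member was called higher (32.3% of all genes) and 2 lower (11.6%), and 9 were higher and 8 lower by adjusted p. The 482 genes no longer than the members' median length of 748 bases had a median of -0.18 with TMM. With a trend on transcript length removed, the median of the members was -0.17. With TMM, lower values by adjusted p were spread over the complexes, with 17 in complex I, all 4 in complex II, 7 in complex III, 7 in complex IV and 10 in ATP synthase. Cox7a2l was the 1 member that passed in the higher direction (0.32, against 28.4% of all genes), at 61.3 and 61.4 CPM between DMSO_KLA and DMSO_Veh.

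Among the 9, Cycs fell from 6.19 and 6.48 to 3.01 and 2.14 CPM (-1.28 ± 0.30, adjusted p = 5.49e-05), still above the 0.724 and 1.13 CPM of DMSO_Veh. Ndufs4 fell from 28.1 and 31.7 to 14.2 and 15.7 CPM (-1.0 ± 0.13, adjusted p = 4.51e-14), to either side of the 15.3 and 15.3 CPM of DMSO_Veh. Atp5o, the stalk subunit OSCP, fell from 68.6 and 70.1 to 45.5 and 41.8 CPM (-0.66 ± 0.08, adjusted p = 5.98e-15), compared with 40.8 and 38.5 CPM in DMSO_Veh. The others were Ndufs5 (-0.65), Ndufs6, Ndufs3 and Ndufa1 (-0.64 each), Cox5a (140 and 132 to 90.5 and 86.5 CPM, -0.62) and Cox6c (-0.61). For Cycs, Ndufs4, Atp5o and Cox5a no library of TBK1i_KLA overlapped with DMSO_KLA. With library totals Cycs fell by 0.92 and Ndufs4 by 0.63, while the other 7 were not called (-0.30 for Atp5o, -0.25 for Cox5a and -0.28 for Ndufs5). The comparisons with vehicle and with the inhibitor both use the DMSO_KLA libraries.

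Complex II genes were each lower with the inhibitor by adjusted p on the TMM scale, with Sdhb at 75.5 and 83.3 against 54.7 and 53.6 CPM (-0.55 ± 0.07, adjusted p = 7.61e-13), Sdhd at 99.6 and 107 against 76.7 and 74.0 CPM (-0.46), Sdhc at 111 and 112 against 82.1 and 91.9 CPM (-0.36) and Sdha at 164 and 165 against 135 and 142 CPM (-0.25). Ppargc1b was lower by 2.55 on the log2 scale and Nrf1 higher by 0.75, while Esrra (-0.45) passed without being called. Of 47 assembly factors, 6 were higher and 9 lower, led by Cox18 (-2.23), Sco1 (-1.89) and Coa5 (-1.81), which were higher with KLA by 2.15, 2.94 and 2.67 in WT cells. Those WT values come from another table than the inhibitor values, and KLA and date cannot be told apart in them. None of 18 citric acid cycle genes was called (median -0.02, 6 higher and 3 lower by adjusted p). Mitochondrial ribosomal proteins counted 4 higher and 6 lower of 76 (median -0.17), cytosolic ones 1 and 4 of 66 (-0.19) and glycolysis genes 6 and 3 of 16 (0.35). With library totals the counts were 13 and 6 for assembly factors, 6 and 0 for the citric acid cycle, 12 and 1 and 5 and 1 for the ribosomes, and 11 and 1 for glycolysis, and all 5 medians lay above 0 (0.29, 0.35, 0.20, 0.18 and 0.71). On that scale 32.3% of all genes were called higher and 11.6% lower.

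**Figure D5:**
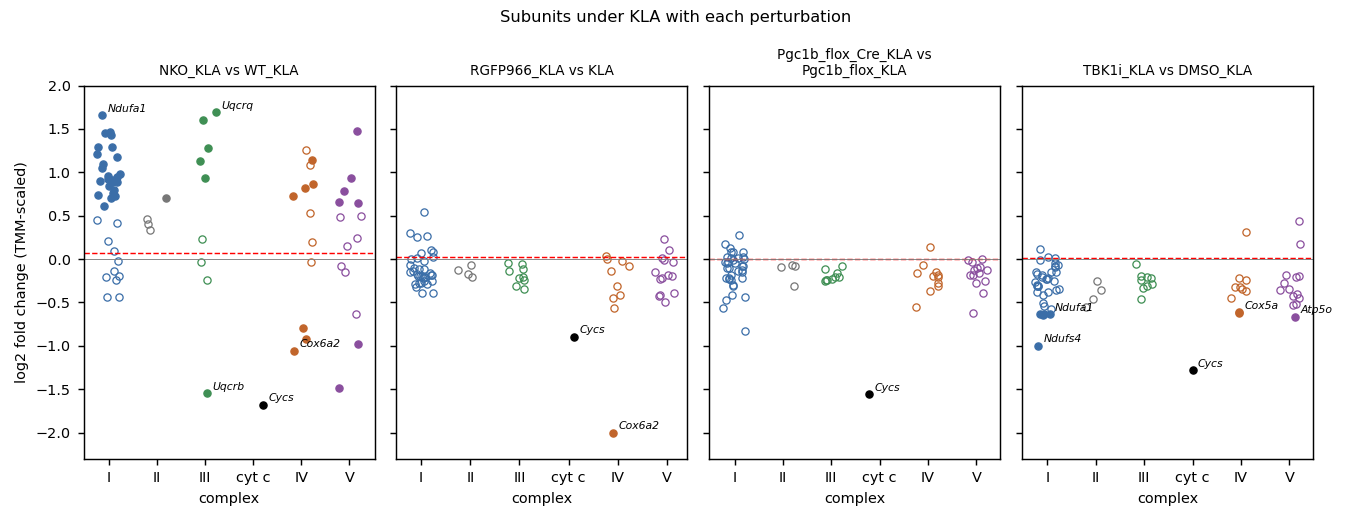
Log2 fold change of each tested subunit by complex for NKO_KLA against WT_KLA, RGFP966_KLA against KLA, Pgc1b_flox_Cre_KLA against Pgc1b_flox_KLA and TBK1i_KLA against DMSO_KLA, with called genes filled. Most points lie slightly below 0 in the last 3 panels, where Cycs is called lower, and NKO_KLA spreads from about -1.7 to 1.7.

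With RGFP966, 24 members were lower than in KLA by adjusted p, or 32.4% of the 74 tested against 24.6% of all genes, and 2 were higher (26.3% of all genes). Past the fold threshold, 0 were called higher (15.8% of all genes) and 2 lower (9.54%), and DESeq2 called 3. Median values were -0.17 in complex I, -0.15 in II, -0.21 in III, -0.22 in IV and -0.19 in ATP synthase, beside 0.03 for all genes. Cycs went from 6.79 and 9.72 to 3.69 and 5.25 CPM (-0.90 ± 0.23, adjusted p = 5.14e-04), and the call was lost without KLA replicate 2 (-0.61, adjusted p = 0.080). Cox6a2 had 7 and 31 counts in KLA and 9 and 2 counts in RGFP966_KLA, so that the counts overlapped (-2.00 ± 0.60, adjusted p = 3.31e-03), and its call was lost without KLA replicate 2 (-0.71, adjusted p = 0.54) or RGFP966_KLA replicate 2 (-1.32, adjusted p = 0.092). Cox5a did not pass, at 154 and 152 against 135 and 153 CPM (-0.08 ± 0.06, adjusted p = 0.28). Ppargc1b was lower by 2.49 and Gabpa by 0.64, whereas Esrra differed by -0.03. RGFP966_KLA replicate 2 carries another date in its library name than the other 5 libraries of the table.

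Deletion of Pgc1b in myeloid cells was compared with flox cells under each treatment. With vehicle, 0 of 75 members were called (0.303% of all genes) by edgeR, 6 had an unadjusted p below 0.05, and DESeq2 called 0. With KLA, 0 were called higher (13.2%) and 1 lower (12.9%), and 18 were lower by adjusted p alone, 24.0% of the members tested against 21.8% of all genes. The median was -0.15 beside -0.00 for all genes, with -0.21 in complex III and -0.20 in complex IV, and under library totals it was 0.05 beside 0.20, with 7 members higher and 2 lower by adjusted p. The gene called was Cycs, at 5.72 and 4.52 CPM in Pgc1b_flox_KLA and 1.96 and 1.51 CPM in Pgc1b_flox_Cre_KLA (-1.56 ± 0.45, adjusted p = 4.39e-03), which was lost without Pgc1b_flox_KLA replicate 1 (-1.35, adjusted p = 0.052). The count of 1 became 4 without Pgc1b_flox_KLA replicate 2 and 2 without either Pgc1b_flox_Cre_KLA library. Under vehicle, Cycs had 2.19 and 2.01 CPM without and 0.952 and 2.41 CPM with Cre.

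A test of the difference between the Cre effects under KLA and vehicle called 1 member, with 22.8% of all genes called. This was Cox5a (-0.60 ± 0.12, adjusted p = 1.80e-04), which had 169 and 138 CPM in Pgc1b_flox_KLA, 106 and 104 CPM in Pgc1b_flox_Cre_KLA, and 81.8 to 89.4 CPM in the 4 vehicle libraries. It was not called without Pgc1b_flox_KLA replicate 1 (-0.43) or Pgc1b_flox_Cre_Veh replicate 2 (-0.53), or with library totals (-0.37). The count was 2 without Pgc1b_flox_Cre_Veh replicate 1 or Pgc1b_flox_KLA replicate 2 and 3 without Pgc1b_flox_Cre_KLA replicate 1. For Cycs the same difference was -1.22 ± 0.63 (adjusted p = 0.15). The library names of Pgc1b_flox_Cre_KLA give no treatment time, which the labels state as 6 h.

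Without KLA, few members differed between NKO and WT cells. Under vehicle 1 of 76 members was called (6.21% of all genes) and 7 were lower by adjusted p (10.4%). Under RANKL 0 were called (13.2% of all genes) with 26 at an unadjusted p below 0.05 (1 was called without WT_RANKL replicate 1), under PolyIC 0 (5.93%) with 12, under IFNb 0 (3.8%) with 7 and under IL4 0 (4.24%) with 17, by edgeR, and DESeq2 called 0 in each of these 4. By adjusted p alone, 5 were higher and 10 lower under RANKL (17.2% and 17.1% of all genes), 6 lower under PolyIC (9.80%) and 7 lower under IL4 (7.68%). The gene called under vehicle was Cox6a2, with 17 and 19 counts in WT_Veh and 5 and 9 in NKO_Veh (-1.45 ± 0.48, adjusted p = 0.0214), and leaving out any 1 of the 4 libraries ended the call. Cycs, for example, had 1.44 and 0.913 CPM in NKO_Veh (0.20 ± 0.40, adjusted p = 0.79) and 6.65 and 8.29 CPM in NKO_PolyIC (0.22 ± 0.24 against WT_PolyIC, adjusted p = 0.59).

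Under KLA, in contrast, NKO libraries differed from WT in 47 of 76 members, of which 40 were higher (21% of all genes) and 7 lower (19% of all genes). The median was 0.71 beside 0.07 for all genes, and 0.65 beside 0.02 with library totals. In complex I 25 of 36 were higher and 0 lower (median 0.86), in complex III 5 and 1 of 9 (0.93), in complex IV 4 and 3 of 12 (0.63), in ATP synthase 5 and 2 of 14 (0.36), and in complex II Sdhc was higher (134 and 132 against 211 and 223 CPM, 0.71). The highest were Uqcrq of complex III (42.2 and 33.3 against 126 and 118 CPM, 1.69 ± 0.10, adjusted p = 1.27e-19), Ndufa1 of complex I (15.2 and 11.7 against 45.7 and 39.1 CPM, 1.66 ± 0.15, 5.79e-14) and Uqcr11 of complex III (11.1 and 13.2 against 34.6 and 39.2 CPM, 1.60 ± 0.14, 4.79e-16). Cycs (8.35 and 8.50 against 2.49 and 2.76 CPM, -1.68 ± 0.28, adjusted p = 4.56e-07), Uqcrb of complex III (30.1 and 26.7 against 9.80 and 9.62 CPM, -1.55 ± 0.13, 1.27e-15) and Atp5g1 (4.42 and 5.50 against 1.89 and 1.62 CPM, -1.49 ± 0.32, 5.50e-05) were lowest. The groups did not overlap for these 6 genes, although subunits of complex III were among both the highest and the lowest.

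These NKO_KLA values come from libraries whose date and Y-linked counts (578 and 1057, against 0 in both WT_KLA libraries) differ from WT_KLA. The names of the NKO_KLA libraries also carry polyA and JSS_TDT where those of WT_KLA carry YA. Genotype, date, sex of the mice and any difference in preparation cannot be told apart. The log2 fold changes of 74 members correlated across genes with GC content of the transcript (Spearman's rho 0.54), with the share of 50-base stretches found in other genes (-0.37) and with length (-0.18), and the 599 genes no longer than the members' median length of 746.5 bases had a median of 0.34. With a trend on transcript length removed, the median of the members was 0.37. Part of the difference depends on the control chosen. In a joint fit across the tables, added after seeing the data, 72 members were tested against each set of KLA libraries: 39 were higher and 6 lower against WT_KLA (20.4% and 22.9% of all genes), 37 and 6 against KLA (23% and 23.9%), 36 and 5 against DMSO_KLA (19.2% and 22.5%), and 8 and 9 against Pgc1b_flox_KLA (16.2% and 21.1%), whose libraries also held Y-linked transcripts and come from another table.

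Against all 4 KLA groups, 7 members were higher (8.34% of all genes), which were Ndufa1, Ndufb7, Ndufb10 and Ndufs7 of complex I, Cyc1 and Uqcr10 of complex III and Atp5d of ATP synthase. Lower against all 4 were 5 (12.1%), namely Cycs, Uqcrb, Cox5b, Cox7a2l and Atp5h. These 5 shared 28.5%, 43.4%, 25.9%, 17.7% and 50.5% of their 50-base stretches with other genes, the median for members being 1.66%. The 7 higher members each shared 0%. Whether reads that fit several places had a part in these calls was not tested. Cycs was lower by 1.03 to 1.98 on the log2 scale and Cyc1 higher by 0.73 to 1.27. The level of Cyc1 was 140 and 145 CPM in NKO_KLA against 60.4 and 56.7 CPM in WT_KLA.

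A test of the difference between the NCoR effects under KLA and under vehicle called 48 members (36.9% of all genes). For RANKL it called 1 (14.2%), Cox6a2, at 0.458 and 0.698 CPM in WT_RANKL and 0.994 and 1.01 CPM in NKO_RANKL (2.25 ± 0.70, adjusted p = 0.0111), which was lost without WT_RANKL replicate 1 (1.97). Cox6a2 was not called between NKO_RANKL and WT_RANKL themselves. The 2.25 also holds its vehicle change of -1.45 (means of 0.436 CPM in NKO_Veh and 1.23 CPM in WT_Veh), whose call ended without any 1 of the 4 libraries. For PolyIC 0 were called (3.24% of all genes, 9 members at an unadjusted p below 0.05, 1 called without NKO_PolyIC replicate 1), for IFNb 0 (0.604%, 2 members) and for IL4 0 (0.604%, 10 members), by edgeR, with 0 by DESeq2 in each.

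Other lists in NKO_KLA were read beside the 21% and 19% of all genes called higher and lower. Glycolysis genes counted 11 higher and 2 lower of 16 (median 1.09), assembly factors 14 and 5 of 48 (0.30), the citric acid cycle 7 and 1 of 18 (0.13), mitochondrial ribosomal proteins 20 and 2 of 77 (0.31), cytosolic ones 5 and 27 of 68 (-0.45) and regulators 3 and 6 of 12 (-0.53). Ppargc1b was higher by 0.69 and Gabpa lower by 0.91. Ppargc1b was lower in NKO than in WT cells under RANKL (-0.98) and PolyIC (-0.80).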

How the data were processed

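RNA-seq of 44 BMDM libraries was used. The authors mapped reads to mm10 with STAR and deposited raw counts per gene from HOMER (exons, unnormalized, 1 transcript per gene in a table). Tool versions were not given in the sources used here. The methods describe strand-specific counting, while the file headers name no strand option, so genes that overlap others are uncertain, also on the opposite strand if strand was not used. The methods also describe ChIP-seq and other assays, not used here.

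Each table was fitted on its own in R 4.3.3 with edgeR 4.0.16 (TMM scaling, filterByExpr, all groups in 1 robust quasi-likelihood model, Benjamini-Hochberg adjustment over the 13407, 12196, 12205 and 12332 genes tested, 2-sided). Calls needed an adjusted p under 0.05 together with a change of over 1.5-fold. No exact permutation test of groups of 2 can reach 0.05. Common biological coefficients of variation were 0.0421, 0.0433, 0.0665 and 0.031. Per-length levels are counts per transcript length, scaled to 1e6 per library. Intervals and floors (3 counts) cover counting error only. The scripts were tested on simulated data. Promoters are from RefSeq on GRCm38.p6, and shared 50-base stretches were counted for 78 of the 80 members among annotated transcripts. Each of the 22 replicate pairs differed by more than sampling noise (chi-square per degree of freedom 1.54 to 5.87). Matplotlib 3.10.9 under Python 3.11.15 drew the plots.

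Members, gene lists and tests were chosen with earlier results of these data known. Named were the 3 highest and 3 lowest called members per comparison, the member with the highest per-length level of each complex, the Sdh genes, Cycs and Cyc1, the tissue-linked isoforms with their general forms, and members called in 1 direction in all 4 KLA comparisons. From the lists (assembly factors, citric acid cycle, biogenesis regulators, glycolysis, both ribosomes, subunits outside the pattern, targeted genes), called genes were named by the same rule together with Ppargc1b, Esrra, Nrf1, Gabpa and Tfam. Other members were named after their values were seen. Alternatives were size factors of DESeq2, DESeq2 1.42.0, no filter or a mean of 5 CPM, the compared groups alone, a replicate block, single replicates left out, no fold threshold, a length trend removed, and, added after seeing the data, library totals and the joint fit against WT_KLA.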

Additional observations from a re-analysis of the deposited data

Results flagged for a closer look

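The effect of NCoR loss differed between KLA and vehicle for 48 members (36.9% of all genes) and between RANKL and vehicle for 1 (14.2%). The effect of the Pgc1b deletion differed between KLA and vehicle for 1 (22.8% of all genes). Each is by edgeR's quasi-likelihood test of the difference itself. For KLA the 3 highest log2 differences were those of Uqcrq (1.76), Ndufa1 (1.66) and Ndufs6 (1.63), and the 3 lowest were those of Cycs (-1.89), Uqcrb (-1.54) and Cox5b (-1.12). Ndufs6 had 8.19 and 12.2 CPM in WT_KLA, 22.8 and 27.2 CPM in NKO_KLA and 7.19 to 10.5 CPM in the 4 vehicle libraries. Cox5b had 40.4 and 37.8 CPM in WT_KLA, 19.5 and 21.8 CPM in NKO_KLA and 23.7 to 27.6 CPM in those 4. Genotype, date and sex of the mice cannot be told apart there. For RANKL the gene was Cox6a2 (2.25), from few counts and with a vehicle change of -1.45, and for Pgc1b it was Cox5a (-0.60). Groups of 2 libraries are too small for the test of outlying samples.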

How the results depend on the processing

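Counts of members called and their medians (log2) are given where they moved. Shares of all genes with library totals stand above for KLA, PolyIC and the TBK1 inhibitor. With library totals (added after seeing the data), 38 members were called with KLA in WT, 28 with PolyIC, 40 with KLA in Wild type, 20 with KLA in Pgc1b_flox, 3 with the TBK1 inhibitor, 1 for the NCoR difference between PolyIC and vehicle, 0 for the Pgc1b difference between KLA and vehicle, and 13 lower and 0 higher with KLA in all 4 tables. The medians were -0.57 (KLA in WT), 0.59 (RANKL), -0.53 (PolyIC), -0.085 (IFNb), -0.60 (KLA in Wild type), -0.37 (KLA in Pgc1b_flox), -0.36 (KLA with DMSO), 0.050 (Pgc1b deletion with KLA), 0.061 (TBK1 inhibitor) and, for NCoR loss, -0.11 (vehicle), 0.65 (KLA), -0.11 (RANKL), -0.11 (IFNb) and -0.18 (IL4). Without the fold threshold the counts were 50, 64, 42, 6 and 23 for KLA, RANKL, PolyIC, IFNb and IL4 in WT, 7, 15, 6 and 7 for NCoR loss with vehicle, RANKL, PolyIC and IL4, 44, 42 and 56 for KLA in Wild type, Pgc1b_flox and DMSO cells, 26, 18 and 47 for RGFP966, the Pgc1b deletion with KLA and the TBK1 inhibitor, 9, 1 and 7 for the differences with RANKL, PolyIC and Pgc1b, and 3 lower and 22 higher in all 4 tables. DESeq2's size factors and DESeq2 itself both gave medians of 0.22 (KLA in WT), 0.16 (PolyIC), -0.24 (RGFP966) and 0.39 (DMSO). With the length trend removed, medians were 0.34 (KLA in WT), 0.35 (RANKL), 0.19 (PolyIC), 0.37 (NCoR loss with KLA), -0.020 (NCoR loss with IL4), 0.24, 0.26 and 0.35 (KLA in Wild type, Pgc1b_flox and DMSO cells) and -0.17 (TBK1 inhibitor), and 7, 2, 31 and 0 members were called for PolyIC, the TBK1 inhibitor, the NCoR difference with KLA and the Pgc1b difference. A mean of 5 CPM gave medians of 0.57 (RANKL), 0.054, 0.26 and 0.31 (KLA in Wild type, Pgc1b_flox and DMSO cells) and counts of 0 (IFNb, IL4, NCoR loss with vehicle, RGFP966, Pgc1b deletion with KLA and the NCoR difference with RANKL), 5 and 16 (KLA in Pgc1b_flox and DMSO cells), and 0 lower and 2 higher in all 4 tables, by its construction from fewer genes. With no filter the Wild type median was 0.11 and the NCoR difference with RANKL 2. The compared groups alone gave 0 for IFNb and for NCoR loss with vehicle and a DMSO median of 0.35. In the joint fits NKO_KLA had medians of 0.66, 0.60, 0.25 and 0.60 against WT_KLA, KLA, Pgc1b_flox_KLA and DMSO_KLA, with 17 called against Pgc1b_flox_KLA. Apart from the length trend and the filters, the cause was not tested.

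Leaving out 1 library gave medians of 0.50 to 0.57 (RANKL), 0.065 to 0.24 (PolyIC), 0.077 to 0.17 (IL4), -0.057 to 0.014 (NCoR loss with RANKL), -0.15 to -0.041 (NCoR loss with IL4), 0.13 to 0.25 (KLA in Wild type), 0.25 to 0.36 (Pgc1b_flox), -0.22 to -0.075 (Pgc1b deletion with KLA) and 0.36 to 0.47 (DMSO), and counts of 6 to 7 (PolyIC), 0 to 1 (IFNb), 0 to 0 (NCoR loss with vehicle), 0 to 1 (NCoR loss with RANKL), 1 to 3 (RGFP966), 0 to 4 (Pgc1b deletion with KLA), 1 to 2, 0 to 1 and 0 to 3 (differences with RANKL, PolyIC and Pgc1b) and 0 to 1 (lower in all 4 tables). The lone sample left in a group was assumed to vary like the others. For the 3 highest and 3 lowest called members of each comparison, 43 settings ended a call with its direction kept. Those that turn on 1 library stand in the report, while removing the length trend also ended the calls of Ndufv3 with KLA in WT (-0.52) and of Atp5o with the TBK1 inhibitor (-0.52). None of these highest and lowest members changed sign. Other named members did so with library totals, among them Atp5b and Uqcrfs1 in Pgc1b_flox cells, as given above. No call of a member with TMM became a call in the other direction with library totals. With the replicate block, 21, 18, 8 and 26 members were called with KLA in the 4 tables, as without it, and it moved no count by over 1.5 times. Numbers did not pair the samples, since the correlations of replicate differences between compared groups ran from -0.065 to 0.062 (0 of 18 over 0.1). Depth limits Cycs, Atp5s and the muscle isoforms most.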
